A study of Mus musculus with 15 samples.

Results

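The genes described here mark the steps by which neural stem cells of the adult dentate gyrus become granule neurons. The list holds 32 genes, of which 13 belong to stem and dividing progenitor cells, 8 to newborn neurons and 11 to mature granule cells or related postmitotic neurons. Their members in the methylation table are all CpG positions inside a listed gene or within 2 kb of it (GRCm38 RefSeq gene ends), 1326 of the 455836 CpG positions measured. Of these, 572 lie at progenitor genes, 278 at immature genes and 476 at mature genes. At least 1 position was measured at 30 of the 32 genes, and Calb1 and Tdo2 had 0.

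New granule neurons are made throughout life in the subgranular zone of the dentate gyrus. Radial glia-like stem cells that express Sox2, Nes, Hopx and Lpar1 give rise to dividing progenitors that express Eomes, which become neuroblasts and then granule cells under the control of Neurod1 and Prox1. Running and environmental enrichment are known to raise the number of new neurons in rodents. Methylated CpGs are usually scarce at gene starts rich in CpG and common elsewhere in the genome, and methylation in a tissue is an average over all its cells.

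The dentate gyrus of 15 female mice (strain C57BL/6JRj, aged 7.5 months) was dissected and its DNA studied by RRBS, reduced representation bisulfite sequencing. The method enriches CpG-rich fragments by enzyme digestion and reads methylation after bisulfite treatment, which converts unmethylated cytosines. In the standard group, 5 mice spent 6 months in standard housing. In the enriched group, 5 mice spent 6 months in an enriched environment. In the withdrawal group, 5 mice spent 3 months in enrichment and then 3 months in standard housing. The labels give the strain and no further genotype or allele for any group, and nothing says how mice shared cages or litters, so p-values measure the spread between these 15 samples. The values are percentages without read counts, so the depth behind each is unknown and no counting interval is given. The table holds methylation and not expression, so the dissected tissue could not be checked against expressed markers, and in such bulk tissue a different share of a cell type and a different level within cells cannot be told apart.

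The number of positions with a value differed between mice, from 729 of the 1326 in standard mouse 1 to 1302 in withdrawal mouse 4. The standard group averaged 1095 ± 207 (SD, n = 5), the enriched group 1103 ± 145 and the withdrawal group 1177 ± 73.7. A value in all 15 mice was available at 323 positions of 25 members, called complete positions below. Of these, 277 lay inside the member gene and 46 outside it, and 56 also lay in another gene, such as Sox2ot around Sox2 and Pax6os1 beside Pax6.

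RRBS reads CpGs close to the cut sites of its enzyme, so the letters around a start bear on what was measured. A set of 6 RefSeq promoter windows (GRCm38.p6, 250 bases before to 50 after the start) is shown because the results below turn on them or because they belong to genes with few or no values. Capitals mark CpGs with a measured position, written 5′ to 3′ on the strand of the gene. The Prox1 window is chr1:190169466-190169765 on the minus strand, the Pax6 window chr2:105682213-105682512 on the plus strand, and the Bcl11b window chr12:108003365-108003664 on the minus strand. The Hes5 window is chr4:154960673-154960972 on the plus strand, the Zbtb20 window chr16:43247034-43247333 on the plus strand, and the Tdo2 window chr3:81975679-81975978 on the minus strand.
Prox1 inner start: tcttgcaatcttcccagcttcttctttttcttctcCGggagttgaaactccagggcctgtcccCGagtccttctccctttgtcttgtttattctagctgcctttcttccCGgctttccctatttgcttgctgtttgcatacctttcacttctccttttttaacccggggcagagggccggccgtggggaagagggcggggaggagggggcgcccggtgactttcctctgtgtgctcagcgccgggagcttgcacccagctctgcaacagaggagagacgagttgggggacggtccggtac
Pax6 inner start: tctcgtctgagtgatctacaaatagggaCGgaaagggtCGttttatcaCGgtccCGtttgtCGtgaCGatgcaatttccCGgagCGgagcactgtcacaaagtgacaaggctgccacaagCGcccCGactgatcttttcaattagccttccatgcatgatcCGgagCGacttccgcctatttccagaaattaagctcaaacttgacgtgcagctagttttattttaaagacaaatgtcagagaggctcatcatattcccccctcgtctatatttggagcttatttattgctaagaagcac
Bcl11b: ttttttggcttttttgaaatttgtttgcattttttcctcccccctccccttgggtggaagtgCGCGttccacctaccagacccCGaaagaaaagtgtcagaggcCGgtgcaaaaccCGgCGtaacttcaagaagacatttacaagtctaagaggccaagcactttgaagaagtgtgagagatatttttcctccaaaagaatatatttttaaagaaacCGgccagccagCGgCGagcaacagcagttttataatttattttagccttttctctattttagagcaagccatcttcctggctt
Hes5: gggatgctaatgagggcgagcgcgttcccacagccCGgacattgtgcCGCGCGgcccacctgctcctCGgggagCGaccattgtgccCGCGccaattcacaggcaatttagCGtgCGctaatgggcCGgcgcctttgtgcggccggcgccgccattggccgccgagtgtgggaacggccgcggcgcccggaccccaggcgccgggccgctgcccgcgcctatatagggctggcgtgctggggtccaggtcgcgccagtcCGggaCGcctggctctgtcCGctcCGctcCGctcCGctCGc
Zbtb20: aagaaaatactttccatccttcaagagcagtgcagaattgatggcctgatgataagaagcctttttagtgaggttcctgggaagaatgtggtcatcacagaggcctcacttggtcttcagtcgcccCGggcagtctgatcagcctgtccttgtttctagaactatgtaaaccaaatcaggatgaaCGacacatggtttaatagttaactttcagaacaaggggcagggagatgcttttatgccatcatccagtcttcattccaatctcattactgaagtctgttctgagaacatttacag
Tdo2: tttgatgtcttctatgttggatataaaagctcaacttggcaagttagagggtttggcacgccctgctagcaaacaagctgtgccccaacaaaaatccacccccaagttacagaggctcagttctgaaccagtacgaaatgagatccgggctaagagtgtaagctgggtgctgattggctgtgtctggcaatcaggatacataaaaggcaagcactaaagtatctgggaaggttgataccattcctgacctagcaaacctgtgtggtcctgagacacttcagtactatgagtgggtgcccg

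The 25 members with an entry in the promoter table had 30 windows, with a median of 18 CpGs each against 7 over all 32851 windows. The letters CCGG, the site of MspI, the enzyme commonly used for RRBS, read the same on both strands and contain 1 CpG. They occurred in 25 of the 30 member windows (83.3%) and in 52.8% of all windows. Hes5, an effector of Notch signalling in stem cells, had the most CpGs of any member window, 41, and 23 positions there averaged 1.08%. Tdo2, which encodes tryptophan 2,3-dioxygenase and is expressed by mature granule cells, had 4 CpGs and 1 CCGG in its window, and no position with a value. Zbtb20, a transcription factor of hippocampal neurons, had 3 CpGs in the window shown, and its 2 measured positions averaged 26.4%. That window is at an inner start, 43247284, far inside the gene, which begins at 42875689. The promoter table had no window at the outer end of Zbtb20, so that end is not described by these values. The Bcl11b window, by contrast, averaged 2.38% over 10 positions, and the Pax6 window 7.55% over 15.

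Across the module, methylation was low close to gene starts and higher far from them. Over positions with any value, the 311 within 500 bases of a start averaged 2.36%, and 98.7% of them were below 20%. The average was 4.16% at 500 to 1000 bases, 5.65% at 1 to 2 kb, 13.5% at 2 to 10 kb and 32.7% beyond 10 kb, where 56.4% of 275 positions were below 20%. Distances could be measured only for members in the promoter table, and starts outside that table were not used. These are averages over positions that share genes, libraries and base composition, and they carry no test.

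**Figure D1:**
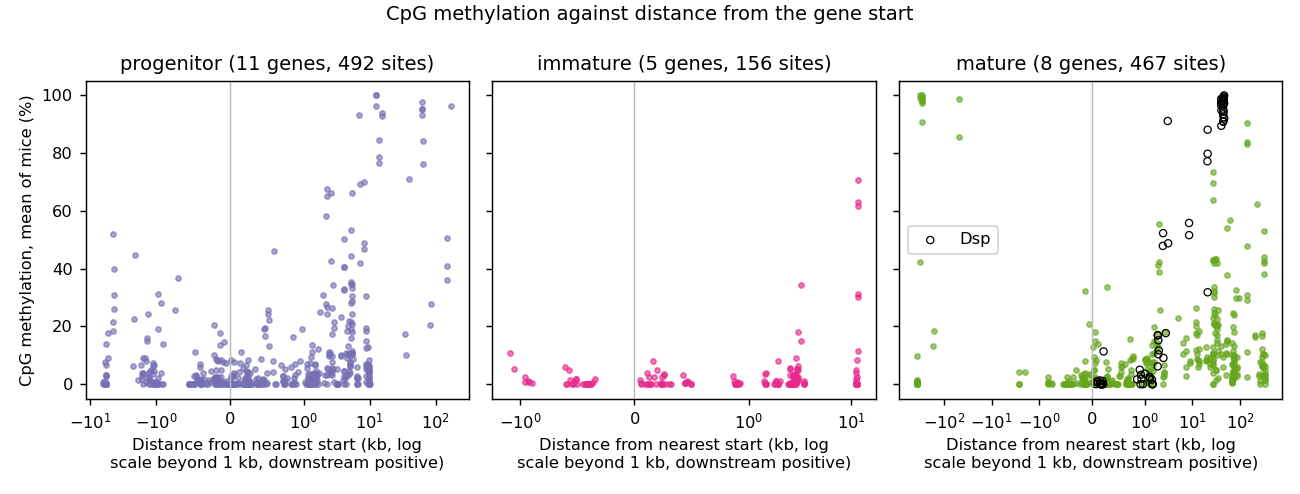
Mean methylation (percent, over the mice with a value) of each CpG position against its distance in kb from the nearest RefSeq gene start (linear to 1 kb, log-scaled beyond, downstream positive), with 1 panel for each of the progenitor, immature and mature classes. Points within 500 bases lie near 0 in all 3 panels, and the positions above 80% lie kilobases away from a start, many of them in Dsp (open circles in the mature panel).

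The contrast between start and body was wide in some genes and small in others. Dsp encodes desmoplakin, a junction protein used as a granule cell marker, and lies at chr13:38151294-38198577. Its 20 positions within 1 kb of the start averaged 1.39%, and its 54 positions farther away averaged 65.5%. Lpar1, a lysophosphatidic acid receptor that marks adult hippocampal stem cells, had 1 position near a start at 0.690% and 11 others at 81.1%. Nes averaged 5.30% over 3 positions near its start and 42.0% over 4 others, and Hopx 5.01% over 52 and 37.4% over 13. Cdk6, a kinase that drives progenitors through the G1 phase, averaged 1.5% over 32 positions near its start and 32.4% over 16 others. Sox11, a transcription factor of newborn neurons, averaged 0.724% over 46 positions near its start and only 2.05% over 22 others. Neurod2, a transcription factor of maturing neurons, went the other way, with 7.68% over 8 positions near the start and 3.36% over 6 others.

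The 323 complete positions had a median of 8.74%, against 10.5% over the complete positions of all protein-coding genes and 41.2% over all 113832 complete positions. Of the 323, 216 (66.9%) were below 20%, 70 lay between 20% and 80%, and 37 were above 80%. Dsp supplied 25 of those 37. A mean over complete positions could be formed for 23 members with at least 3 such positions, and these gene means had a median of 13.9% against 22.5% over 8349 protein-coding genes. No complete position was available at Neurod1, Neurod2, Hes5, Nes and C1ql2, while Neurog2 had 1 and Tubb3 had 2.

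Progenitor genes spanned nearly the whole range of levels. Lpar1 was highest at 82.1% over 6 complete positions, followed by Cdk6 at 57.7% over 5. None of these 5 Cdk6 positions was below 20%, while its 48 positions with any value averaged 11.8%. Ccnd2, the cyclin that dividing granule cell precursors depend on, averaged 30.9% over positions of opposite kinds. A group of 8 positions between 127125371 and 127125975 on chromosome 6, at the low-coordinate end of the gene, averaged 65.1%, and the 9 others, near 127150042 to 127150848, averaged 0.434%. Sox2, a core stem cell factor, averaged 26.1%, but all of its 8 complete positions lay outside the gene and inside Sox2ot. Pax6, a homeobox factor of progenitors, averaged 23.1%, and Hopx, a homeodomain protein of quiescent stem cells, 16.7%. Emx2, a homeobox factor of hippocampal development, averaged 6.94%. Nr2e1 (Tlx), the nuclear receptor that keeps stem cells dividing, averaged 6.35%. The Notch effector Hes1 averaged 2.76% and Eomes (Tbr2), the factor of intermediate progenitors, 2.34%. All 3 complete positions of Hes1 and all 14 of Eomes lay outside the gene. Positions with any value averaged 1.84% over 46 at Hes1 and 6.05% over 43 at Eomes. At the genes without a gene mean, positions with any value averaged 26.3% over 7 at Nes, the intermediate filament of stem cells, 1.92% over 42 at Hes5, and 1.74% over 42 at the proneural factor Neurog2.

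Among the immature genes, Igfbpl1, which is expressed by neuroblasts, stood apart at 76.7% over 3 positions. The adhesion molecule Ncam1, whose polysialylated form marks young neurons, averaged 18.9% over 33 positions, and Calb2 (calretinin), a transient marker of newborn granule cells, 9.64% over 9. The other immature genes with a gene mean lay below 4%. Sox11 averaged 3.40%, Tbr1, a T-box factor of glutamatergic neurons, 2.82%, and Sox4, which acts beside Sox11, 2.14%. Neurod1, needed for granule cell survival, averaged 1.32% over 14 positions with any value, and Tubb3, a neuronal tubulin, 7.64% over 11.

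Mature genes were led by Dsp at 91.4%, higher than 92.7% of all genes. None of its 28 complete positions was below 20%, while its 74 positions with any value averaged 48.2%. Neurod6, a transcription factor of glutamatergic neurons, averaged 45.2% over 3 positions. Zbtb20 averaged 15.8%, Bcl11b (Ctip2), a zinc finger factor of granule cell maturation, 13.9%, and Prox1, the homeobox factor that defines granule cell identity, 9.11%. C1ql3, a secreted synapse organiser, averaged 6.87%, and Bhlhe22, a transcription factor of postmitotic neurons, 0.728%. Positions with any value averaged 2.79% over 30 at C1ql2, a synapse organiser of mossy fibres, and 5.83% over 14 at Neurod2.

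**Figure D2:**
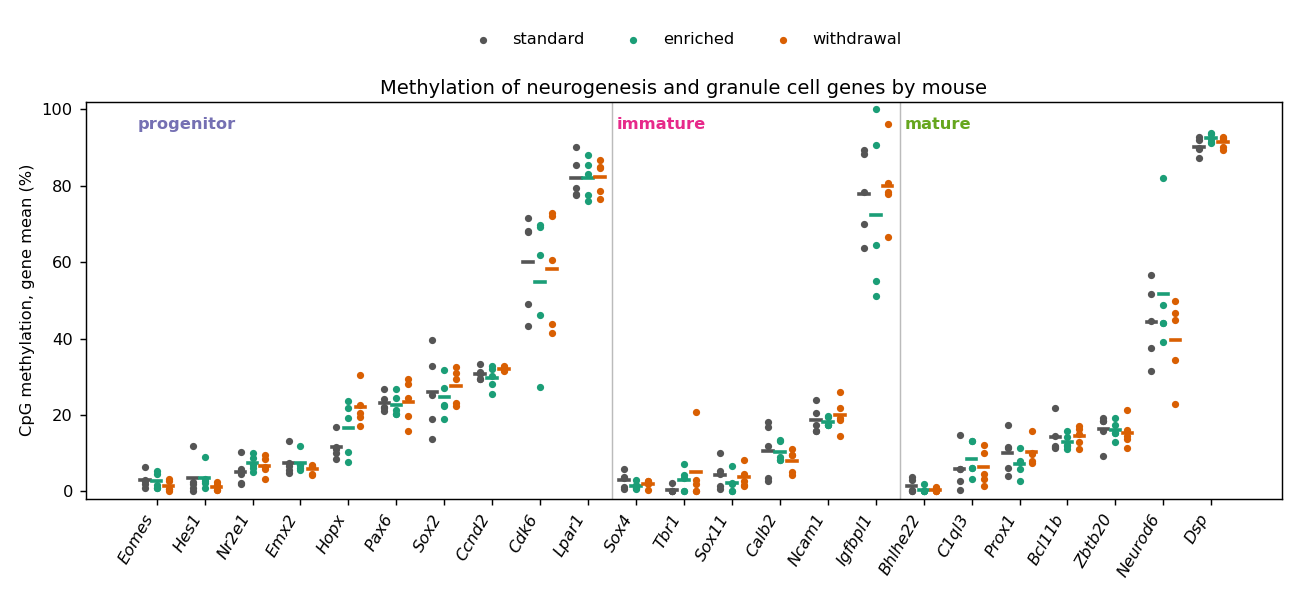
Gene means (percent methylation over complete positions) of the 23 members with at least 3 such positions, 1 point for each of the 15 mice, coloured by housing group with bars at the group means, and with the genes grouped as progenitor, immature and mature. Levels differ far more between genes, from 0.728% at Bhlhe22 to 91.4% at Dsp, than between the housing groups of any 1 gene.

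By the mean over gene means, progenitor and mature genes did not differ as classes by more than the spread between mice. Averaged over gene means, progenitor genes lay between 20.03% and 28.1% in the 15 mice and mature genes between 22.6% and 31.5%. The difference, mature minus progenitor, was 0.658 ± 2.97 points (SD, n = 15), and it was above 0 in 7 of 15 mice. Standard mice averaged 0.822 ± 1.65 points (SD, n = 5), enriched mice 1.85 ± 4.03 and withdrawal mice -0.697 ± 2.80, and the groups overlapped. Immature genes averaged 18.9% in all mice. No test was made, since genes of a class are not replicates. The SD is a spread between mice and does not measure how far the genes of a class differ.

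The near-equality depended on single genes, among them Dsp and Lpar1. Without Dsp, the mature class was below the progenitor class in 15 of 15 mice, with a difference of -10.2 ± 3.10 points (SD). Without Lpar1, the mature class was higher by 6.95 points, and without both genes the difference was -3.92 points. These omissions were chosen after the levels were seen. With the median over genes in place of the mean the difference was -5.78 points. With at least 5 complete positions per gene, which kept both Dsp and Lpar1, it was -5.05 points. With positions within 1 kb of a start alone it was -5.15 points, above 0 in 0 of 15 mice. Only 2 mature genes, Prox1 and Bcl11b, and 4 progenitor genes entered there, with Hopx highest at 16.5% and Pax6 next at 10.1%. Averaged over all positions of a class it was 8.55 points, above 0 in 15 of 15 mice. In that average mature positions were at 29.5%, and at 13.1% without Dsp, beside 20.9% for progenitor positions. Its direction therefore depended on which genes and positions were counted and on how they were weighted.

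**Figure D3:**
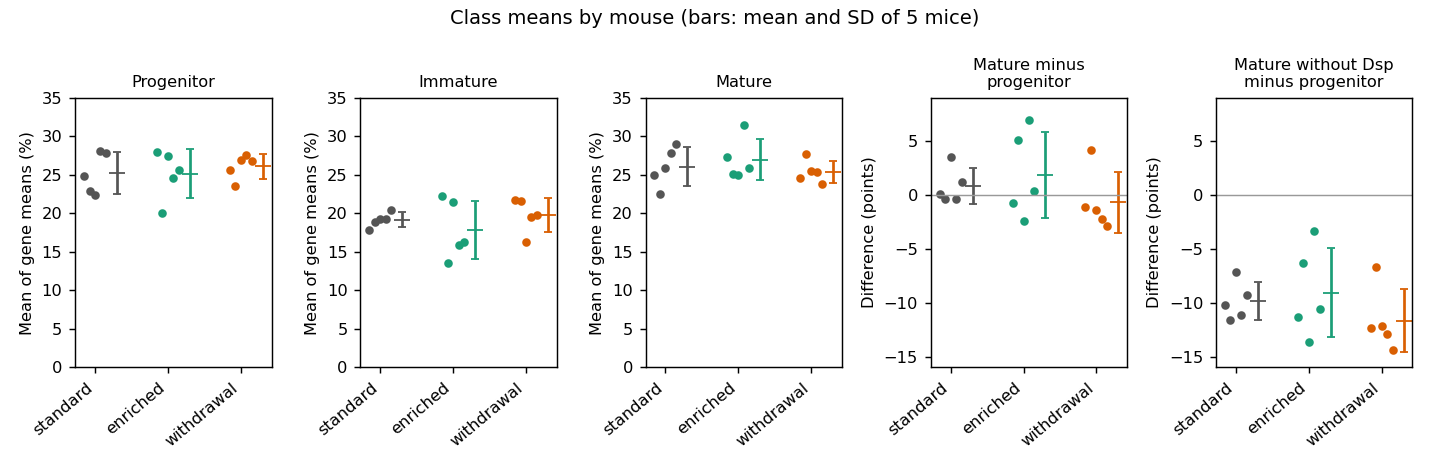
Class means (percent methylation, mean over gene means) for each of the 15 mice by housing group, for progenitor, immature and mature genes, and the differences in points of mature minus progenitor with and without Dsp, with mean and SD of 5 mice as bars. Progenitor and mature means overlap in each group, and the mature mean without Dsp is below the progenitor mean in all 15 mice.

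Single positions varied widely between mice of the same group. The median within-group SD was 6.21 points for member positions below 20%, 17.4 points for those between 20% and 80%, and 6.72 points for those above 80%. Over all complete positions it was 4.94, 17.5 and 7.38 points. At 12 member CpGs read on both strands, the strands differed within a mouse by a median of 4.82 points, against 3.11 points at 2223 such CpGs over the whole table.

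The housing groups were compared to ask whether enrichment, or its withdrawal, went with a different methylation of these genes. No member passed the threshold in any of the 3 comparisons (limma, Benjamini-Hochberg adjusted p under 0.05), whether single positions, gene means, gene starts or 1 kb windows were tested. Tests ran over 100562 positions with a range of at least 5 points, 8349 gene means, 3433 gene starts (mean over complete positions within 1 kb of a start) and 15677 windows. The members among them were 283 positions, 23 gene means, 6 starts and 48 windows. Over the whole table, the adjusted threshold was passed by 0% of positions, starts and windows in each comparison, by 0.012% of gene means (1 gene) between enriched and standard, and by 0% of gene means in the other comparisons.

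At an unadjusted p under 0.05, the share at members was below that of the table in both comparisons with enriched mice and close to it between withdrawal and standard mice. Between enriched and standard mice, 6 of 283 member positions (2.12%) passed against 5.15% of all. Of all positions, 2.7% passed higher and 2.45% lower, and the 6 at members were 3 and 3. Between withdrawal and standard mice, 15 member positions (5.30%) passed against 4.42% of all, 11 of them higher (2.47% of all positions) and 4 lower (1.95% of all). Of the 11, 9 lay at progenitor genes, in Hopx, Nr2e1 and Pax6. Between withdrawal and enriched mice, 8 member positions (2.83%) passed against 4.3% of all, 5 higher (2.32% of all) and 3 lower (1.98% of all). Neighbouring positions can share reads and are not independent.

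Positions at which no mouse of one group reached the other group were few at members. Between enriched and standard mice there were 0 at members, against 0.458% of all positions. Between withdrawal and standard mice there were 3 (1.06%), against 0.532%, and between withdrawal and enriched mice 2 (0.707%), against 0.51%. They lay in Hopx and Zbtb20.

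For gene means, the unadjusted threshold was passed by 6.04% of all genes between enriched and standard, 5.34% between withdrawal and standard, and 4.84% between withdrawal and enriched. Among the 23 members the counts were 0, 1 (Hopx) and 0. Groups did not overlap at 0.719%, 0.85% and 0.767% of all genes in the same order, and at 0, 1 (Hopx) and 0 members. The median difference over members was -0.386 points between enriched and standard, 0.163 between withdrawal and standard, and 0.590 between withdrawal and enriched, beside 0.0554, 0.293 and 0.211 over all genes. The comparisons share mice, so their values are not independent of one another.

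For gene starts, the unadjusted threshold was passed by 5.36%, 5.1% and 5.33% of all starts in the same order, and by 1 (Prox1), 2 (Hopx and Prox1) and 0 of 6 members. Groups did not overlap at 0.583%, 0.67% and 0.99% of all starts, and at 1 (Prox1), 1 (Hopx) and 0 members. For windows the shares were 5.71%, 4.8% and 4.39% of all, and the counts 2 (Bcl11b and Dsp), 2 (Hopx and Pax6) and 0 of 48 members.

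**Figure D4:**
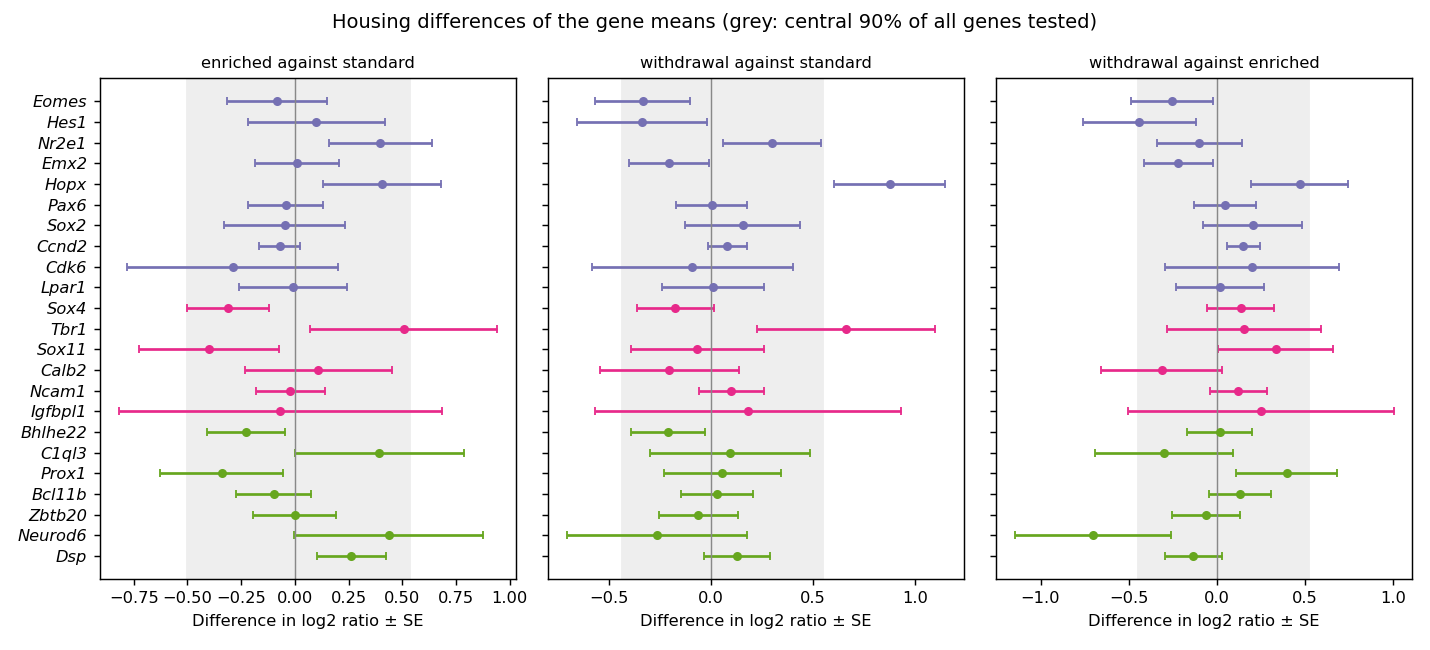
Differences between housing groups in gene means for the 23 members, as the log2 ratio of percent methylated to percent unmethylated after 5 points were added to each, with bars for standard errors from limma, 1 panel for each comparison, genes ordered by class and the central 90% of all genes in grey. Most members lie close to 0, and the Hopx difference between withdrawal and standard mice, 0.88, is among the few that lie outside the central 90% of all genes.

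Hopx, at chr5:77086986-77115123, was the 1 member whose gene mean did not overlap between a pair of groups. Its start mean over 12 positions was 9.77%, 8.17%, 13.5%, 12.2% and 10.2% in the 5 standard mice. It was 22.2%, 8.15%, 18.9%, 8.81% and 21.9% in the enriched mice, and 25.9%, 28.3%, 18.1%, 23.4% and 17.4% in the withdrawal mice. The lowest withdrawal mouse was above the highest standard mouse, and the enriched mice overlapped both. Group means were 10.8% ± 2.09 (SD, n = 5), 16% ± 6.97 and 22.6% ± 4.77. On the log2 scale used for all tests (the ratio of percent methylated to unmethylated after 5 points were added to each), the difference between withdrawal and standard was 1.00 ± 0.29 (SE), or 11.9 points (limma, adjusted p = 0.809). The difference was 5.22 points between enriched and standard (limma, adjusted p = 0.859) and 6.65 points between withdrawal and enriched (limma, adjusted p = 0.857). The gene mean over 15 positions gave a difference of 10.4 points between withdrawal and standard (0.88 ± 0.27 on the log2 scale; limma, adjusted p = 0.878). Between withdrawal and enriched the gene mean differed by 5.47 points (limma, adjusted p = 0.995), and by 3.22 points without enriched mouse 2 and 3.37 without withdrawal mouse 1.

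The start positions with the largest of these differences were among 8 that lie 469 to 594 bases inside the gene from its outer start. Of these, 5 were read on the minus strand, between 77114596 and 77114654, and 3 on the plus strand, between 77114529 and 77114603. The split by strand was chosen after the values were seen and is described without a test. The minus-strand mean was 0%, 15%, 19.4%, 12.3% and 1.05% in standard mice. It was 26.2%, 6.67%, 22.5%, 11.3% and 21.8% in enriched mice, and 38.2%, 43.5%, 20.2%, 39.7% and 30.8% in withdrawal mice. Withdrawal mice lay above all standard mice on that strand, while the plus-strand means of 23.7%, 31.4% and 28.4% in standard, enriched and withdrawal mice came from overlapping groups. At the 1 CpG with plus-strand position 77114595 and minus-strand position 77114596, the plus strand averaged 14.8%, 10.6% and 14.6%, and the minus strand 8.15%, 19.8% and 38.6%. The 5 minus-strand positions span 59 bases, so 1 read can cover several of them.

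The Hopx value depended strongly on which positions entered. When positions measured in only 3 or 4 mice of a group were also let in, the difference between withdrawal and standard was 2.44 points at the start (limma, adjusted p = 0.929) and 1.37 points over the gene (limma, adjusted p = 1). Restricting the start to 500 bases gave 24.9 points (limma, adjusted p = 0.900). Among the positions left out by that limit were the 3 on the plus strand described above and 77114596 on the minus strand. The start difference between withdrawal and enriched was 1.51 points under the first of these settings and 18.1 points under the second. At 77114644 on the minus strand the difference was 31.8 points (limma, adjusted p = 0.692), and at 77114596 it was 30.4 points (limma, adjusted p = 0.766). Against enriched mice, position 77114649 on the minus strand differed by 23.1 points (limma, adjusted p = 0.976), with overlapping groups.

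The Hopx window starting at 77114001, which holds those 8 positions, averaged 14.8% ± 3.52 (SD, n = 5), 22.9% ± 10.4 and 32.2% ± 6.99 in standard, enriched and withdrawal mice. Withdrawal differed from standard by 17.4 points (limma, adjusted p = 0.995) and from enriched by 9.35 points (limma, adjusted p = 0.999). At another Hopx position, 77094761, withdrawal mice ranged from 0% to 13.6% and the groups overlapped. The group means there were 0.952%, 1.56% and 8.89%, so withdrawal differed by 7.93 points from standard and 7.33 points from enriched (limma, adjusted p = 0.961 and 0.976).

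Prox1, at chr1:190118035-190170827, had the start difference with the smallest p between enriched and standard mice, at a low level. Its start mean over 5 positions was 7.14%, 1.95%, 3.33%, 5.63% and 3.76% in standard mice. It was 1.85%, 0.267%, 1.01%, 0.408% and 1.64% in enriched mice, and 0.305%, 1.49%, 0.962%, 3.48% and 1.14% in withdrawal mice. All enriched mice lay below all standard mice (lowest standard 1.95%, highest enriched 1.85%), and the withdrawal mice overlapped both groups. The difference from standard was -3.33 points in enriched mice (-0.66 ± 0.20 on the log2 scale, SE; limma, adjusted p = 0.804) and -2.89 points in withdrawal mice (limma, adjusted p = 0.845). Between withdrawal and enriched it was 0.442 points (limma, adjusted p = 0.975). With positions measured in 3 or more mice per group the differences were -0.748 and -0.119 points (limma, adjusted p = 0.898 and 1).

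Most of that difference came from 2 of the CpGs in capitals in the Prox1 window. The position at 190169701 averaged 6.79%, 0% and 0.377% in standard, enriched and withdrawal mice, with standard mouse 1 at 29.4% and the other standard mice at 0% to 2.94%. The position at 190169655 averaged 7.92%, 1.18% and 2.57%, with standard mouse 4 at 25%. A different mouse was high at each of the 2 positions. The whole-gene mean of Prox1 was 10.1% ± 5.21 (SD, n = 5), 7.06% ± 3.15 and 10.2% ± 3.40, and its groups overlapped. The Prox1 window starting at 190139001 averaged 21.0%, 12.3% and 28.8%, with mice from 0% to 53.9%. Its difference of 16.5 points between withdrawal and enriched (limma, adjusted p = 0.999) was 10.2 points without withdrawal mouse 2.

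Zbtb20, at chr16:42875689-43634392, held the single position with the smallest p of any member. At 43386876 on the minus strand, inside the gene, all 5 standard and all 5 enriched mice were at 100%. The withdrawal mice were at 66.7%, 85.4%, 52.9%, 97.0% and 56.2%, so none reached the others. The difference was -28.3 points against each of the other groups (-2.94 ± 0.54 on the log2 scale, SE; limma, adjusted p = 0.380 against standard and 0.442 against enriched). Standard and enriched mice had no spread there, so the pooled spread behind the SE and p-values understates that among withdrawal mice. Without withdrawal mouse 4, the closest to 100%, the difference was -34.7 points and the adjusted p (limma) was 0.0213 and 0.0238. That was the only member feature to pass the adjusted threshold in any of the alternatives run. The Zbtb20 gene mean, over 25 positions, was 16.2% ± 4.15 (SD, n = 5), 16% ± 2.36 and 15.4% ± 3.67.

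**Figure D5:**
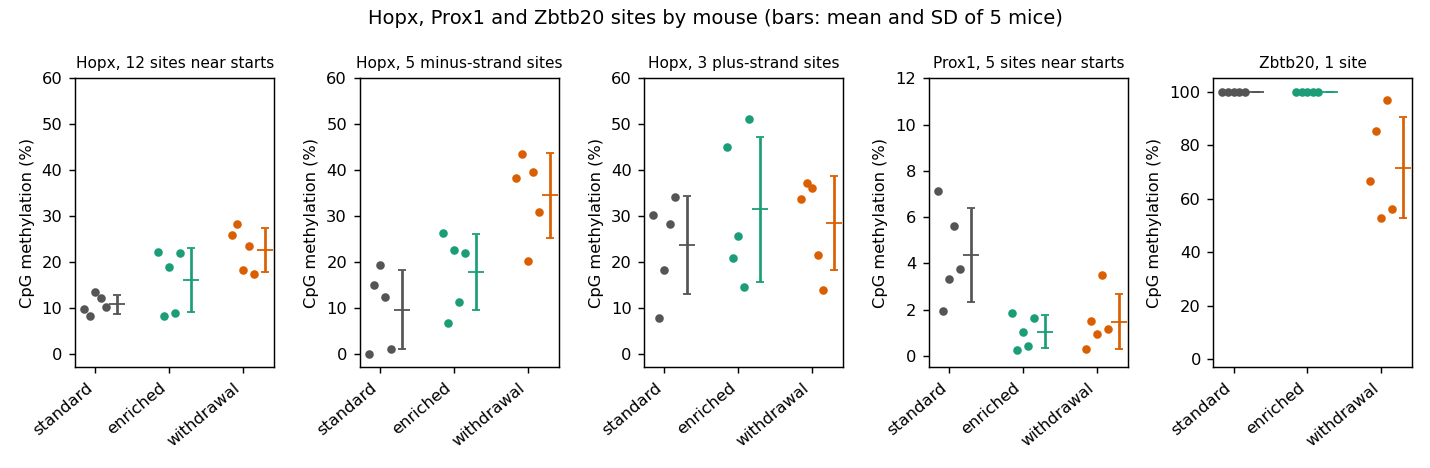
Percent methylation in each of the 15 mice by housing group for the Hopx start mean (12 positions), the Hopx minus-strand and plus-strand means, the Prox1 start mean and the Zbtb20 position at 43386876, with mean and SD of 5 mice as bars (vertical scales differ). Withdrawal mice lie above standard mice on the Hopx minus strand and below 100% at the Zbtb20 position, and enriched mice lie below standard mice at the Prox1 start.

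Several other progenitor positions had an unadjusted p under 0.05 and overlapping groups. Pax6, at chr2:105668896-105698410, held 1 at 105681723 that averaged 45.9%, 13.2% and 17.5% in standard, enriched and withdrawal mice. Its enriched mice ranged from 0% to 58.6%, and the difference from standard was -32.7 points (limma, adjusted p = 0.876). Another Pax6 position, 105667486, averaged 4.91%, 3.92% and 15%, a difference of 11 points between withdrawal and enriched (limma, adjusted p = 0.976). The Pax6 window starting at 105667001 averaged 10.1%, 11.8% and 16.7%, with 6.56 points between withdrawal and standard (limma, adjusted p = 0.995). The Pax6 window starting at 105682001, which contains the promoter shown, averaged 3.05%, 6.92% and 7.80%. Its 4.74 points between withdrawal and standard (limma, adjusted p = 0.995) were 2.21 points without withdrawal mouse 3. Pax6 as a whole stayed between 22.6% and 23.5% in the 3 groups.

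At Nr2e1, chr10:42561963-42583590, position 42582663 averaged 1.40%, 11.7% and 0%. All 5 withdrawal mice and 4 of 5 standard mice were at 0% there. The difference was 10.3 points between enriched and standard (limma, adjusted p = 0.876) and -11.7 points between withdrawal and enriched (limma, adjusted p = 0.976). The Nr2e1 gene mean was 4.94% ± 3.38 (SD, n = 5), 7.37% ± 2.01 and 6.73% ± 2.47 (enriched against standard, limma, adjusted p = 0.862). Its difference of 2.43 points between enriched and standard was 3.76 points without standard mouse 2, and -0.429 points with positions measured in 3 or more mice per group. The Nr2e1 start mean was 0.763%, 2.35% and 1.91%, a difference of -0.441 points between withdrawal and enriched (limma, adjusted p = 0.975) whose sign changed with the mice left out. Eomes averaged 3.01% ± 2.09, 2.62% ± 2.08 and 1.40% ± 1.42 (withdrawal against standard, limma, adjusted p = 0.974), and its difference shrank from -1.60 to -0.737 points without standard mouse 1. The Eomes start mean differed from standard by -1.78 points in enriched and -1.77 points in withdrawal mice (limma, adjusted p = 0.859 and 0.910), and by -0.546 and -0.533 points without standard mouse 1. The Ccnd2 mean of 32.1% ± 0.458 in withdrawal mice was 2.45 points above enriched (limma, adjusted p = 0.995), and 1.38 points without enriched mouse 4.

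Immature genes gave the fewest positions. Ncam1 held 1, at 49799240 on the minus strand, with 3.43%, 12.9% and 8.21% in standard, enriched and withdrawal mice (enriched against standard, limma, adjusted p = 0.914). The Tbr1 gene mean was 0.439% ± 0.981 (SD, n = 5), 2.92% ± 3 and 5.11% ± 8.87. Its difference of 4.67 points between withdrawal and standard (limma, adjusted p = 0.974) was 0.749 points without withdrawal mouse 1. Sox4 averaged 3% ± 2.15, 1.41% ± 0.915 and 2% ± 0.921, and its difference of -1.59 points between enriched and standard (limma, adjusted p = 0.862) was -0.858 points without standard mouse 4. The Calb2 window starting at 110168001 averaged 3.11%, 0.294% and 1.83% (enriched against standard, limma, adjusted p = 0.868), and its difference was -0.885 points without standard mouse 1.

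Mature genes other than Prox1 and Zbtb20 showed isolated positions. In Bcl11b, at chr12:107910403-108004145, position 107950035 averaged 3.81%, 29.2% and 12.0%, with 4 of 5 standard mice at 0% and enriched mice from 0% to 60% (enriched against standard, limma, adjusted p = 0.817). Position 108001876 of Bcl11b went the other way at 23.5%, 0.458% and 8.65% (limma, adjusted p = 0.817), and its difference of -23.1 points was -14.4 points without standard mouse 1. The Bcl11b window around it, starting at 108001001, averaged 16.2%, 5.57% and 12.8% (enriched against standard, limma, adjusted p = 0.822), and the difference of -10.7 points was -6.02 points without standard mouse 1. Between withdrawal and enriched that window differed by 7.21 points (limma, adjusted p = 0.999), and by 3.93 points without withdrawal mouse 2. The Bcl11b gene mean was 14.3% ± 4.41 (SD, n = 5), 13% ± 1.94 and 14.4% ± 2.48.

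In C1ql3, position 13009805 averaged 0.278%, 7.42% and 13.9%, with 4 of 5 standard mice at 0% and withdrawal mice from 0% to 29.2% (withdrawal against standard, limma, adjusted p = 0.961). The Dsp window starting at 38195001, with 14 positions, averaged 95% ± 2.41 (SD, n = 5), 98.3% ± 1.22 and 96.5% ± 1.09, a difference of 3.30 points between enriched and standard (limma, adjusted p = 0.815). The Dsp gene mean was 90.2% ± 2.15, 92.5% ± 1.21 and 91.4% ± 1.57 (enriched against standard, limma, adjusted p = 0.862), and its difference of 2.22 points was 1.45 without standard mouse 1. Neurod6 averaged 44.4% ± 10.2, 51.6% ± 17.3 and 39.7% ± 11.1, and its difference of -11.9 points between withdrawal and enriched (limma, adjusted p = 0.995) was -4.31 points without enriched mouse 4. Standard mouse 1 had the fewest member positions with a value, and its part in these differences was tested only by leaving it out.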

How the data were processed

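Per the labels' protocols, RRBS libraries were made from dentate gyrus DNA of 15 mice. Per the submitters' processing notes the tools were Trim Galore 0.4.0, cutadapt 1.8.1, Bismark 0.16.1 and methylKit 1.5.2, with build mm10, and any coverage minimum is not given in the sources used here. The authors deposited a percent of methylation for each strand-specific cytosine, without read counts. The table lists CpG positions first and other cytosines second. This was checked against RefSeq promoter letters: all 40750 first-run positions in promoter windows were a C before a G, and 0% of 118733 second-run positions were. Only the first run was used.

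The members, classes and lists were chosen with earlier results of these data known. Percentages were turned into log2((percent + 5)/(100 - percent + 5)) and fitted over all features with limma 3.58.1 in R 4.3.3 (3 group means, trend on the mean, two-sided, Benjamini-Hochberg adjustment over all features of a kind). Single positions needed a value in 15 mice and a range of 5 points, and gene means, starts and windows at least 3 such positions, with chromosome Y and mitochondrial positions left out. On simulated data with normally distributed noise, 200 features of each kind were shifted in the enriched mice. They were drawn from features away from both ends of the scale. By contrast, 15 of 23 member gene means and all 6 member starts lay below 20%. Recovery was not tested close to the lower end of the scale, where many members lie. At 20 points the tests recovered 149 gene means, 80 starts, 0 windows and 0 single positions. At 40 points they recovered 197, 189, 141 and 0, and at 60 points 98 single positions. False calls were 8 gene means and 5 starts at 20 points. They were 15 gene means, 14 starts and 8 windows at 40 points, and 15 single positions at 60 points. The text names each member with at least 3 complete positions, and for each comparison gives values for the 5 positions and the 3 gene means, starts and windows with the smallest p. Gene positions came from RefSeq (GRCm38.p6), whose table gives no exons here and names a strand only for the 25 members in the promoter table. Same-numbered mice of different groups did not deviate together (r from -0.0177 to 0.0192 over 15 pairs), so numbers were not used as pairs. Alternatives changed the added points, the scale, the variance trend, the block, the required values, the range filter, the position limits and the mice included.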

Additional observations from a re-analysis of the deposited data

Results flagged for a closer look

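A mouse lay far from the other 4 of its group in 9 of 99 groups of 5 examined (Dixon's test at the 95% level, by which chance alone marks about 1 group in 20 of normally distributed values). Where the other 4 mice are all at 0%, any higher value is marked, so that rate does not apply to such groups. Most of these were single high values at genes with few positions or low levels. In enriched mouse 4 the Neurod6 gene mean was 82.1%, with the others at 39.2% to 48.7%. In enriched mouse 1 the Emx2 gene mean was 11.8%, with the others at 5.51% to 7.02%. The Tbr1 gene mean was 20.8% in withdrawal mouse 1, with the others at 0% to 2.87%, and 2.19% in standard mouse 2, with the others at 0%. The Hes1 gene mean was 11.9% in standard mouse 1, with the others at 0% to 2.50%, and the Bhlhe22 gene mean was 1.93% in enriched mouse 3, with the others at 0%. The Bcl11b start mean was 4.84% in withdrawal mouse 1, with the others at 1.78% to 2.53%, and the Nr2e1 start mean was 3.82% in standard mouse 2, with the others at 0%. The difference between mature and progenitor classes was 4.15 points in withdrawal mouse 2, with the other withdrawal mice at -2.91 to -1.08 points.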

How the results depend on the processing

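The count of members past the adjusted threshold was 0 in all 12 combinations of feature and comparison, and stayed 0 under the alternatives run except 1. Without withdrawal mouse 4 the count for single positions was 1 between withdrawal and standard and 1 between withdrawal and enriched (range 0 to 1 over the mice left out), the Zbtb20 position in both. The replicate block, which pairs mice by number, gave 0 members in each combination and changed no call. Some differences changed sign. The Nr2e1 gene mean between enriched and standard was -0.429 points with positions measured in 3 or more mice per group. The Prox1 start between withdrawal and enriched ranged from -0.0588 points (without withdrawal mouse 4) to 0.735 over the mice left out. The Nr2e1 start between withdrawal and enriched ranged from -1.37 to 0.222 points, and was 0.222 points without enriched mouse 4 and 0.0359 without withdrawal mouse 1, 3 or 4. The mature minus progenitor difference ranged from 0.205 to 0.913 points over the mice left out. It was -5.78 points by the median over genes, 8.55 over all positions of a class, -5.18 inside genes only, -5.05 with at least 5 positions per gene and -5.15 within 1 kb of starts. It was -10.2 points without Dsp, 6.95 without Lpar1 and -3.92 without both, omissions chosen after seeing the data. The cause of these shifts was not tested beyond the genes and positions that each setting leaves out. The simulated shifts were placed at features away from both ends of the scale, unlike many members. There the test of single positions recovered 0 of 200 differences of 40 points and 98 of 200 of 60 points. The test of windows recovered 0 of 200 differences of 20 points, so the counts of 0 do not show equal levels. Unknown read depth also limits single positions, since a value such as 100% may rest on few reads.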

Other observations

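A further 49 genes known in adult neurogenesis were looked at in the same way, and 32 had a gene mean. Their median was 9.26%, with 18 below 20%. The lowest was Dll1, a Notch ligand, at 1.17%, and the highest was Mcm2, a DNA replication factor, at 97.6%. None passed the adjusted threshold in any comparison (limma). At an unadjusted p under 0.05 there were 2 of 32 between enriched and standard, where 6.04% of all genes passed. Gli1, an effector of hedgehog signalling, was 5.84 points higher in enriched mice and Npnt, a matrix protein gene, 6.02 points higher in standard mice (93.8% against 87.8%). Between withdrawal and enriched, Npnt averaged 95.7% against 87.8%, and Dll1 0.294% against 1.90% (limma, adjusted p = 0.909 and 0.995).

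Genes of other cell types of the hippocampus carried methylation at levels of their own, which does not show how many such cells were present. Median gene means were 6.91% over 4 pyramidal neuron genes, 20.2% over 4 astrocyte genes, 14.2% over 4 inhibitory neuron genes and 18.8% over 6 oligodendrocyte lineage genes, and P2ry12, the 1 microglial gene with a mean, was at 67.9%. None passed the adjusted threshold (limma). At an unadjusted p under 0.05, Gad2 averaged 20.1% in withdrawal mice against 16.3% in standard and 15.4% in enriched mice (limma, adjusted p = 0.932 and 0.809). The median over the 4 inhibitory neuron genes went the other way, with differences of -0.981 points from standard and -1.67 points from enriched mice. Olig2 averaged 10.8% in withdrawal against 1.64% in enriched mice (limma, adjusted p = 0.960), and the median difference of its list was 4.86 points. Over all genes, 5.34% passed between withdrawal and standard and 4.84% between withdrawal and enriched. Whether Gad2 or Olig2 moves with Hopx or other members was not tested.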
